A study of Mus musculus with 6 samples.

Results

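The desmosomal cadherins and their plaque proteins were followed in skin of LynDN transgenic and wild-type (WT) mice. Members were the rows of the deposited table whose only gene symbol was on a list of 10 genes: the desmogleins Dsg1a, Dsg2 and Dsg3, the desmocollins Dsc1, Dsc2 and Dsc3, the plaque proteins Dsp, Jup and Pkp1, and Cdsn. Of these 10 genes, 9 had a row, each from 1 probe, among 22879 rows tested, and no row was named Dsg1a. Total RNA from skin of 3 LynDN mice and 3 WT mice was hybridised to 2-colour arrays as 3 mouse pairs. Pair 1 joined LynDN mouse 1 with WT mouse 1, pair 2 LynDN mouse 2 with WT mouse 3, and pair 3 LynDN mouse 3 with WT mouse 2. The 6 arrays are made up of 2 per pair, of opposite dye orientation. The array of pair 2 with LynDN in Cy5 carries a date in its label that no other array has. Within that pair, date and dye orientation therefore cannot be told apart. Lyn belongs to the Src family of tyrosine kinases, and LynDN (LynDeltaN in the series title) is a form of it without its N-terminal end. Strain, age and sex of the mice, the body site of the skin and the promoter of the transgene are not stated in the labels.

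Desmosomes are the junctions that hold keratinocytes together and anchor their keratin filaments. Desmogleins and desmocollins are the transmembrane cadherins that bind those of the next cell. Inside the cell plakoglobin (Jup) and plakophilins bind the cadherin tails, and desmoplakin (Dsp) links them to keratin. In epidermis Dsg3 and Dsc3 are strongest in the lower layers, whereas Dsg1 and Dsc1 are strongest in the upper layers. There corneodesmosin (Cdsn), a secreted glycoprotein, is built into the modified desmosomes of the cornified layer, which proteases later cut as corneocytes are shed.

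Every value is a log ratio of LynDN and WT as deposited, and which genotype is the numerator is stated in no source used here. Positive and negative therefore mark opposite sides only. Mice with this transgene are known for a psoriasis-like inflammation of the skin, and S100a8, an alarmin gene of inflamed epidermis, was positive on all 6 arrays (4.04 to 5.32). That would make positive values higher in LynDN skin, but no row was named Lyn, so the labels could not be checked. The log base is not stated, and folds assume base 2. The table holds no signal per channel, so neither expression levels nor the tissue label could be checked, and the number of arrays limits the precision. In whole skin, fewer cells of a type and less RNA per cell cannot be told apart.

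The pairs were unequal. Across all rows pairs 2 and 3 correlated at r = 0.745, while pair 1 correlated with them at 0.350 and 0.386, where genes are not independent replicates. The 2 mice of pair 1 also differed in sex-linked genes: Y-linked Eif2s3y had 3.50 in pair 1 but -0.0040 and 0.028 in the other pairs, whereas Xist had -1.06 in pair 1 but -0.090 and -0.14 in the others. Between the 2 arrays of a pair the rows correlated at 0.0239 in pair 1, 0.463 in pair 2 and 0.462 in pair 3. The mean of 257 Gapdh rows, a reference gene, was 0.18 ± 0.092 (SD, n = 3 pairs) and that of 305 Actb rows 0.034 ± 0.048. Gapdh differed by dye, which this SD leaves out. In pairs 1, 2 and 3 it had -0.12, 0.063 and 0.050 with LynDN in Cy3 and 0.28, 0.47 and 0.36 with LynDN in Cy5.

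The comparison of genotypes asked which desmosomal genes differ between LynDN and WT skin. Cdsn, Dsc2 and Dsc1 stood farthest from 0, with mean log2 ratios of 0.61 ± 0.37 and 0.52 ± 0.26 for Cdsn and Dsc2 and -0.46 ± 0.26 for Dsc1 (SD, n = 3 pairs). Of the 9 measured members, 8 had a positive mean, as did 43.9% of all rows, and the members' median was 0.20, against -0.014 for all rows. None of the 9 passed the limma test at an adjusted p of 0.05 over all rows, where 0.0175% of rows did. The members' adjusted p lay between 0.278 and 0.769. Before adjustment 5 positive members and 1 negative member had a p under 0.05, against 5.92% of all rows on the positive and 6.41% on the negative side (12.3% in all). With the 6 arrays fitted with a dye term and the pair as a block, 0 of 9 passed, while 1.06% of rows did. That fit gives every row the same correlation within pairs (0.151). Its p can be too small for rows whose pairs differ more than their dye swaps, as for Cdsn, Dsc2 and Dsc1. A single sign on all 6 arrays was seen for 5 of 9 members, positive for Dsg3, Dsc2, Dsc3 and Cdsn and negative for Dsc1, against 8.03% of all rows (3.72% positive and 4.31% negative).

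**Figure D1:**
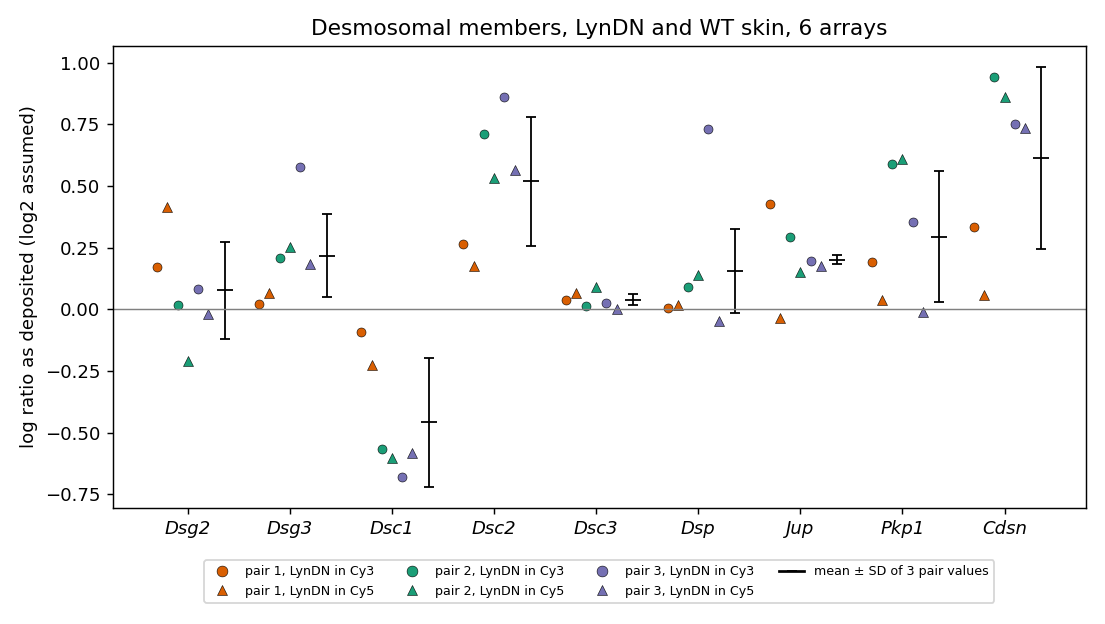
Log ratio as deposited (log2 assumed) of the 9 measured members on each of the 6 arrays. Circles are arrays with LynDN in Cy3 and triangles arrays with LynDN in Cy5, colours give the mouse pair, and the black bar is the mean ± SD of the 3 pair values. Cdsn and Dsc2 were positive and Dsc1 negative on all arrays, with pair 1 nearest to 0 for each.

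Among the desmogleins Dsg3, the keratinocyte desmoglein whose loss gives the balding mouse, had values of 0.022 and 0.067 in pair 1, 0.21 and 0.25 in pair 2, then 0.58 and 0.18 in pair 3 (LynDN in Cy3, then LynDN in Cy5). All 6 values were positive, with those of pair 1 nearest to 0. The mean was 0.22 ± 0.17 (SD, n = 3; 95% interval from limma 0.017 to 0.42; adjusted p = 0.384), which is close in size to the mean of the Gapdh rows. Dsg2, the desmoglein that is found in nearly all tissues with desmosomes, had 0.17 and 0.42 in pair 1, 0.019 and -0.21 in pair 2, then 0.081 and -0.018 in pair 3. Its arrays lay on both sides of 0, and only pair 1 had 2 clearly positive values. The mean was 0.077 ± 0.20 (adjusted p = 0.750), and it changed sign to -0.031 without pair 1.

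Dsc2, the broadly expressed desmocollin, had values of 0.26 and 0.18 in pair 1, 0.71 and 0.54 in pair 2, then 0.86 and 0.57 in pair 3. The lowest array of pairs 2 and 3 lay above the highest of pair 1. The mean of 0.52 ± 0.26 (SD, n = 3; 95% interval 0.24 to 0.80) corresponds to 1.43-fold, and 2.05% of all rows had a mean at least as far from 0. Adjusted p was 0.278 on the pair values and 0.0510 with the pair as a block. The Dsc2 row is one of those whose values carry at most 3 significant digits, a format that 17.1% of all probes share.

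Dsc1, the desmocollin of the upper epidermal layers, had -0.090 and -0.23 in pair 1, -0.57 and -0.60 in pair 2, then -0.68 and -0.58 in pair 3. It was the only measured member with a negative mean. The mean was -0.46 ± 0.26 (SD, n = 3; 95% interval -0.73 to -0.18), or 1.37-fold, and 2.68% of all rows lay at least as far from 0. Adjusted p was 0.282 on the pair values and 0.0694 with the block.

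Dsc3, the desmocollin of the basal layer and the partner of Dsg3 there, stayed near 0 on all arrays, between 0.0023 and 0.092. Its mean was 0.040 ± 0.022 (SD, n = 3; adjusted p = 0.769), with a 95% interval from -0.086 to 0.17. This interval leaves out ratios as far from 0 as those of Dsc2 and Dsc1. Whether the Dsc3 probe had signal over background is unknown, and a probe without signal could also stay near 0. Of all rows, 66.5% lay at least as far from 0.

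Dsc2 and Dsc1 are neighbours in the cluster of desmosomal cadherin genes, yet they lay on opposite sides. The difference of Dsc2 minus Dsc1 was 0.38, 1.21 and 1.34 in pairs 1, 2 and 3, and it was positive on 6 of 6 arrays (0.35 to 1.54). Its mean was 0.98 ± 0.52 (SD, n = 3). The exact two-sided sign-flip test over 3 pairs gave p = 0.25, the smallest value that 3 pairs allow, and 0.312 after Benjamini-Hochberg adjustment over 5 such differences. The difference of Dsc2 minus Dsc3 averaged 0.48 ± 0.28 and was likewise positive on 6 of 6 arrays (exact p = 0.25, adjusted 0.312). The difference of Dsg3 minus Dsg2 averaged 0.14 ± 0.34, with -0.25 in pair 1, and was positive on 4 of 6 arrays (exact p = 0.5, adjusted 0.5). That of Dsg1b minus Dsg1c averaged 0.26 ± 0.093 and was positive on 5 of 6 arrays (exact p = 0.25, adjusted 0.312). All 5 differences were picked after the values were seen.

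In the order of the RefSeq gene table for GRCm38.p6, the cadherin cluster on chromosome 18 runs Dsc3, Dsc2, Dsc1, Dsg1c, Dsg1a, Dsg1b, Dsg4, Dsg3 and Dsg2. The means in this order were 0.040, 0.52 and -0.46 for the desmocollins, then 0.026 for Dsg1c and 0.29 for Dsg1b, and -0.23, 0.22 and 0.077 for Dsg4, Dsg3 and Dsg2. Both signs occurred along the cluster, and the largest positive and the largest negative mean belonged to neighbours. Of the Dsg1 paralogs in mouse, Dsg1b had 0.30 and 0.21 in pair 1, 0.17 and 0.38 in pair 2, then 0.49 and 0.17 in pair 3, positive on all 6 arrays. Its mean of 0.29 ± 0.039 (SD, n = 3; adjusted p = 0.256) had the smallest p of the 18 desmosomal genes with a row, though the 2 arrays of pair 3 differed by more than the SD over pairs shows. Dsg1c had 0.026 ± 0.074, with values of -0.30 and -0.17 on the arrays of pairs 2 and 3 with LynDN in Cy5 and 0.15 to 0.22 on those with LynDN in Cy3. The Dsg1 genes are close paralogs, and a probe for one may take up transcripts of another.

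**Figure D2:**
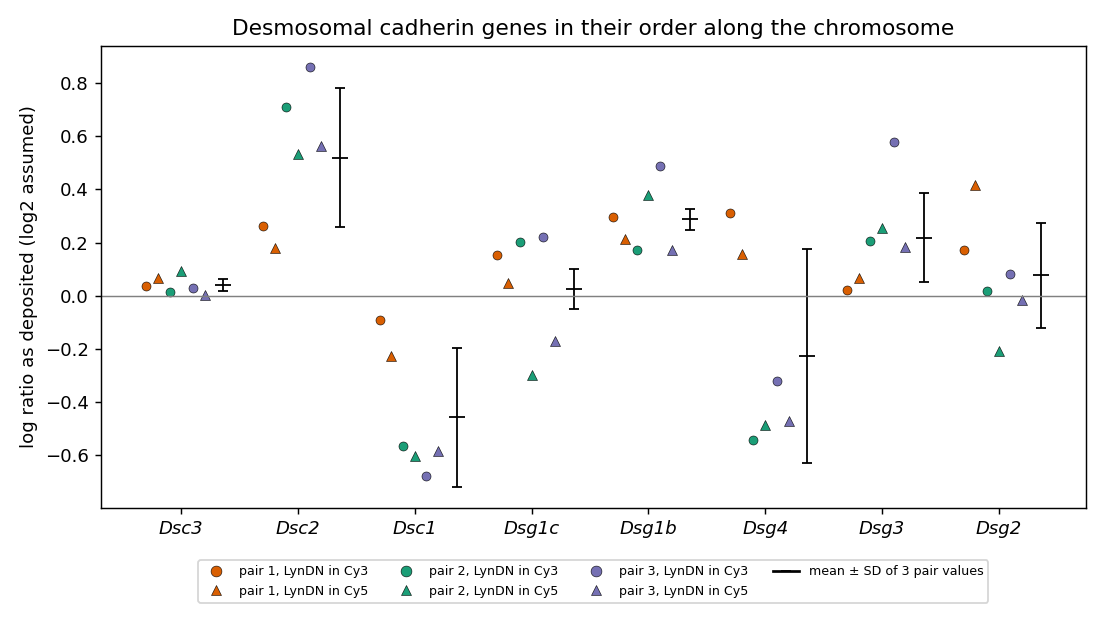
Log ratio as deposited (log2 assumed) of the 8 measured desmosomal cadherin genes on each array, drawn in their order along the chromosome and not to distance. Circles are arrays with LynDN in Cy3, triangles arrays with LynDN in Cy5, and bars the mean ± SD of 3 pair values. The neighbours Dsc2 and Dsc1 lay on opposite sides of 0 on all 6 arrays.

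Dsg4, the desmoglein of the hair follicle and the gene of the lanceolate hair mouse, divided the pairs. It had 0.31 and 0.16 in pair 1, -0.54 and -0.49 in pair 2, then -0.32 and -0.47 in pair 3. The mean was -0.23 ± 0.40 (SD, n = 3; adjusted p = 0.597), so the pairs differed more from each other than the mean lay from 0. The hair keratin Krt35, picked after the values were seen, had 0.24 and 0.058 in pair 1, -1.11 and -1.15 in pair 2, then -0.93 and -0.74 in pair 3. Other hair follicle markers differed from it. Krt33a, with the smallest p of that list, had -0.65 and -0.29 in pair 1 and was negative on all 6 arrays. Tchh had 0.67 and 0.49 in pair 1, -0.054 and 0.40 in pair 2, then -0.022 and -0.052 in pair 3. Of 7 measured hair follicle markers 6 had a negative mean, as did 12844 of all 22879 rows. Their list median was 0.092, -0.98 and -0.64 in pairs 1, 2 and 3. The part of follicle content in the Dsg4 values was not tested.

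The plaque proteins had positive means. Jup, plakoglobin, had 0.43 and -0.036 in pair 1, 0.29 and 0.15 in pair 2, then 0.20 and 0.18 in pair 3. Its pair values of 0.20, 0.22 and 0.19 nearly coincided, while the 2 arrays of pair 1 stood 0.47 apart, so the SD of 0.018 understates the spread between arrays. The mean was 0.20 (95% interval 0.076 to 0.33; adjusted p = 0.287), near that of the Gapdh rows. Pkp1, the plakophilin that is most abundant in the upper epidermis, had 0.19 and 0.038 in pair 1, 0.59 and 0.61 in pair 2, then 0.35 and -0.011 in pair 3. Its mean of 0.30 ± 0.27 (SD, n = 3; adjusted p = 0.391) rested mostly on pair 2. Dsp, desmoplakin, had 0.0057 and 0.016 in pair 1, 0.090 and 0.14 in pair 2, then 0.73 and -0.048 in pair 3. A single array thus gave most of its mean of 0.16 ± 0.17 (adjusted p = 0.495), and the other 5 lay between -0.048 and 0.14.

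Cdsn had 0.33 and 0.058 in pair 1, 0.94 and 0.86 in pair 2, then 0.75 and 0.74 in pair 3. Pairs 2 and 3 lay close together, with all 4 values above both of pair 1. The mean of 0.61 ± 0.37 (SD, n = 3; 95% interval 0.24 to 0.98) corresponds to 1.53-fold, and 1.47% of all rows had a mean at least as far from 0. Adjusted p was 0.282 on the pair values and 0.0684 with the block. Cdsn minus Dsc1, both of them genes of the upper layers, averaged 1.07 ± 0.62 and was positive on 6 of 6 arrays (exact sign-flip p = 0.25, adjusted 0.312).

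Because Cdsn had the largest ratio of the members, the sequences around its start sites are given here. RefSeq lists a pair of starts for it on the plus strand of chromosome 17 in GRCm38.p6, each shown from 250 bases before to 50 bases after the start. Capitals mark matches to the motif letters of AP-1 (TGANTCA), STAT (TTCNNNGAA) and C/EBP (TTGCNNAA), which were searched on both strands.
Cdsn, upstream start, chr17:35542851-35543150: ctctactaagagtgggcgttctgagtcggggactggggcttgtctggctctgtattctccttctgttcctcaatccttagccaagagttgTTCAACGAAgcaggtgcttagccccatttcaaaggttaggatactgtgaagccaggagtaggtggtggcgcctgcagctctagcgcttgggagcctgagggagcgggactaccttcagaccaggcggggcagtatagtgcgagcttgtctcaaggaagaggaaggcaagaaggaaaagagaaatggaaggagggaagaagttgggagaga
Cdsn, downstream start, chr17:35551878-35552177: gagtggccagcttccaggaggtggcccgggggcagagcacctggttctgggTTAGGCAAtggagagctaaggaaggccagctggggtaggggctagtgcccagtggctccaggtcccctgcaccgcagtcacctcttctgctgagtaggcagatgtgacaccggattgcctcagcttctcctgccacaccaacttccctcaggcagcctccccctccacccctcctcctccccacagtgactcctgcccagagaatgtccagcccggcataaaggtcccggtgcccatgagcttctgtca
The upstream window holds 1 STAT match and the downstream window 1 C/EBP match, and neither holds the AP-1 letters. Of 32851 windows of this length in the table, 8.3% hold the STAT letters, 10.8% the C/EBP letters and 7.81% the AP-1 letters. The windows of Dsp and Jup hold none of these motifs, and the other members have no window in the table. A match is a description of the letters only.

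Most members had values nearer to 0 in pair 1 than in the other pairs. For 7 of the 9 members the value of pair 1 lay nearer to 0 than the mean of pairs 2 and 3, which was so for 53.5% of all rows. Jup is counted among the 7 though its values nearly coincided, with 0.197 against 0.204. The exceptions were Dsg2, with 0.29 in pair 1 against -0.031 in the mean of pairs 2 and 3, and Dsc3, with 0.053 against 0.034. The gap was widest for Cdsn, with 0.20 in pair 1 against 0.82. The mean absolute ratio of the members was 0.14, 0.38 and 0.36 in pairs 1, 2 and 3, against 0.11, 0.16 and 0.16 over all rows. In a fit without pair 1, Cdsn, Dsc2 and Dsc1 passed (adjusted p = 0.00869, 0.0113 and 0.0132), with means of 0.82, 0.67 and -0.61. These were 3 of 9 members, where 4.88% of all rows passed (3.22% positive and 1.67% negative), and this fit rests on 2 pairs. The pair left out is the one where these 3 genes lay nearest to 0. In the limma fits without pair 2 or without pair 3, 0 members passed. There all 3 genes had an adjusted p of 0.819 and 0.904. Pair 1 is also the pair whose mice differed in sex-linked genes, and the part of that difference in these values was not tested.

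**Figure D3:**
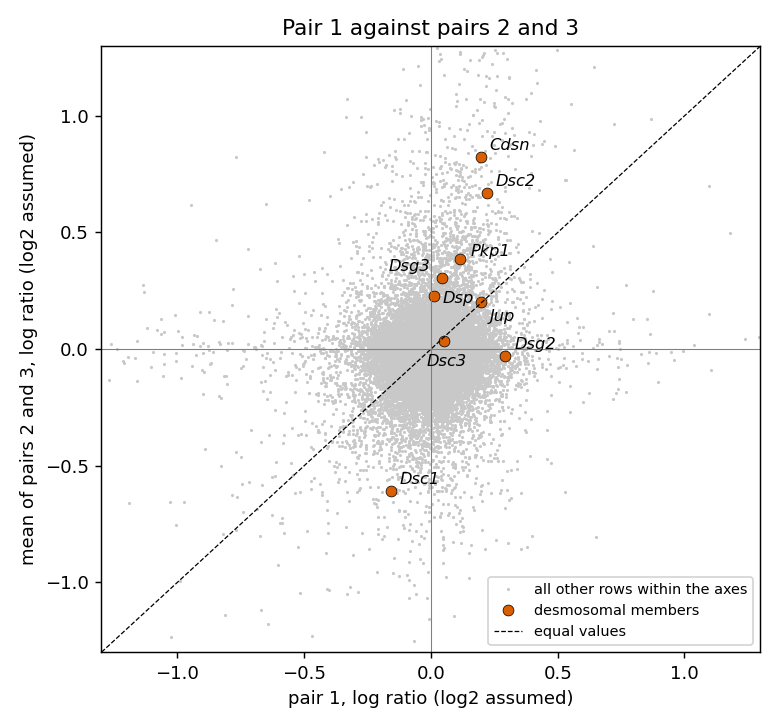
Log ratio as deposited (log2 assumed) in pair 1 (x axis) against the mean of pairs 2 and 3 (y axis) for the 9 members (orange) and all other rows within the axes (grey), with the dashed line marking equal values. Cdsn and Dsc2 lie far above the line and Dsc1 far below it, near 0.2, 0.2 and -0.2 on the x axis.

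Further genes of the desmosome lay nearer to 0. Of 9 genes on this list all 9 had a row, 5 with a positive and 4 with a negative mean, and the median was 0.026. None passed on the pair values or with the block. Against 12.3% of all rows, 2 of the 9 had a p under 0.05 before adjustment, both positive. These were Dsg1b and Perp, a membrane protein of desmosomes, which had 0.22 ± 0.070 (SD, n = 3; adjusted p = 0.292) and was positive on all 6 arrays. Pkp3, the plakophilin found in all living layers, had -0.11 ± 0.084, and the widely expressed Pkp4 had 0.12 ± 0.076. Pkp2 had -0.046 ± 0.29, with pair values of 0.21, -0.36 and 0.011. The plakins periplakin (Ppl) and envoplakin (Evpl), which join desmosomes to the cornified envelope, had -0.083 ± 0.14 and 0.066 ± 0.17.

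Keratins, to which the plaque is attached, spanned a wider range than the plaque genes. Of 8 measured keratins of the epidermis, Krt16 passed on the pair values with 2.49 ± 0.16 (SD, n = 3; adjusted p = 0.00311), and 3 passed with the block, all positive: Krt16, Krt6b with 4.82 ± 1.21 and Krt14 with 1.34 ± 0.54. Krt17, a keratin of stressed epidermis and of appendages, had 0.60 ± 0.24 (adjusted p = 0.247). The upper-layer keratins Krt10 and Krt1 were negative, with -1.77 ± 1.24 and -0.64 ± 0.61, while Krt2 stayed near 0 with 0.042 ± 0.091. The Krt10 values were -0.60 and -0.32 in pair 1, -1.90 and -1.97 in pair 2, then -2.99 and -2.84 in pair 3, and like those of Dsc1 they were nearest to 0 in pair 1. Of 7 suprabasal keratinocyte markers 5 had a negative mean (-2.23 to 0.63 over the list), while 6 of 7 basal markers had a positive one (-1.36 to 1.34). Over all rows 43.9% had a positive mean. The suprabasal exceptions were Krt2 and Krtdap (0.63 ± 0.71), and the basal exception was Krt15 (-1.36 ± 0.33). Krt15 was negative on all 6 arrays and had the smallest p of the basal list. Its adjusted p was 0.123 on the pair values and 0.00475 with the block. The part of layer composition in the values of the members was not tested.

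Proteases that cut corneodesmosomes, and their inhibitors, were spread on both sides. Of 11 measured genes 7 had a positive and 4 a negative mean, with a median of 0.27, and 0 passed on the pair values or with the block. Before adjustment 5 positive genes and 1 negative gene had a p under 0.05, as did 12.3% of all rows. The kallikrein Klk6 had 1.48 ± 0.87 (SD, n = 3; adjusted p = 0.278), whereas Klk5, a kallikrein that cuts corneodesmosin, had -0.58 ± 0.40 (adjusted p = 0.306). Spink5, the inhibitor of Klk5 and related kallikreins, had 0.67 ± 0.49, and cathepsin L (Ctsl) had 0.56 ± 0.39. For Klk5 the lowest pair was pair 1, with -0.76 and -1.02, against -0.11 and -0.16 in pair 2 and -0.81 and -0.65 in pair 3.

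Neighbouring junctions had smaller medians than the members. Of 8 adherens junction genes, which couple cells to actin, 6 had a positive mean and the median was 0.11, with 0 past the threshold in both fits. Before adjustment 3 positive genes and 1 negative gene had a p under 0.05, as did 12.3% of all rows. P-cadherin (Cdh3) had 0.24 ± 0.094, E-cadherin (Cdh1) 0.20 ± 0.12 and Nectin1 0.36 ± 0.21 (SD, n = 3; adjusted p = 0.291, 0.356 and 0.292), and Ctnnb1, beta-catenin, had -0.30 ± 0.28. In pairs 1, 2 and 3 Cdh1 had 0.36, 0.57 and 0.47 with LynDN in Cy3 but -0.11, 0.13 and -0.20 with LynDN in Cy5. Of 8 hemidesmosome genes, which anchor basal cells to the basement membrane, 6 had a positive mean and the median was 0.10. None of these 8 passed on the pair values, where 3 had an unadjusted p under 0.05, as did 12.3% of all rows. The integrin Itgb4 had 0.47 ± 0.17 and passed with the block (adjusted p = 0.0344). Its partner Itga6 had 0.58 ± 0.35 and Lamb3, a laminin chain, 0.32 ± 0.30. The laminin chain Lama3 had 0.10 ± 0.042. Whether the members' median differed from these was not tested.

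**Figure D4:**
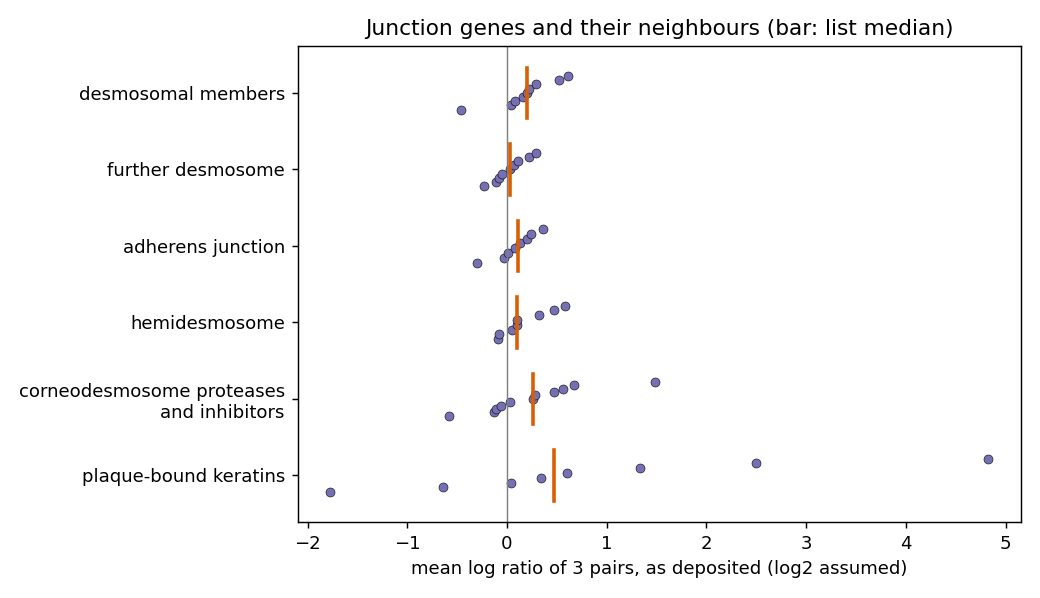
Mean log ratio of 3 pairs as deposited (log2 assumed) for the genes of 6 lists, each point a gene and the orange bar the list's median. The members span -0.46 to 0.61, whereas the keratins span -1.77 to 4.82.

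Genes with a pattern like that of the members were found by the Euclidean distance over the 6 arrays. Nearest to Cdsn were Itga6 at a distance of 0.157, Dhrs9 at 0.187, Ccl6 at 0.231, Galnt6 at 0.251 and Pls3 at 0.260. Nearest to Dsc2 were Aqp9 at 0.160, Clec4n at 0.176, Lcp1 at 0.200, Gramd3 at 0.245 and Cotl1 at 0.262. These distances are descriptions over arrays that share mice within a pair. Several genes near Dsc2, such as Lcp1 and Clec4n, are known from leukocytes. Of the leukocyte markers, 5 of 5 measured macrophage genes (0.20 to 0.65) and 4 of 4 neutrophil genes (0.23 to 2.48) had a positive mean, and 1 of 4 T cell genes did (-0.32 to 0.039). The macrophage median was -0.038, 0.46 and 0.58 in pairs 1, 2 and 3. Of other cell types, 6 of 6 skeletal muscle markers (-1.20 to -0.17), 4 of 5 adipocyte markers (-0.55 to 0.15), 4 of 6 fibroblast markers (-0.32 to 0.19) and 3 of 5 endothelial markers (-0.074 to 0.12) were negative. Of all 22879 rows 12844 had a negative mean and 43.9% a positive one. The fibroblast and endothelial counts are near that share. The part of these cells in the members' values was not tested.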

How the data were processed

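The authors deposited log ratios of 25344 probes on 6 arrays, with a mean of 0 per array. They were taken as log2 ratios as deposited, since values reach 6.16. Log base, numerator, background correction and normalization were stated in no label or file header. RNA was extracted with Qiagen and labelled with Ambion reagents, per the labels' protocols. Probes were named through the platform annotation: 21082 had 1 symbol, 30 several and 4232 none. Probes of 1 symbol were averaged, and the others stayed as rows, which left 22879 rows.

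The 2 arrays of a pair hold the same 2 mice, per the labels, and were averaged. The 3 pair values were tested against 0 with limma 3.58.1 (R 4.3.3, lmFit and eBayes, two-sided), with Benjamini-Hochberg adjustment over all rows and a threshold of 0.05. SDs are over pair values and leave out the gap between dye-swapped arrays. The alternative block fit used duplicateCorrelation (consensus 0.151). This value is shared by all rows, so the p of that fit can be too small where the arrays of a pair are more alike. No filter on dim probes was possible without intensities. Members and lists were chosen with earlier results of these data known. All members and further desmosome genes are named, and of the other lists up to 4 genes by smallest p. Other genes were named after their values were seen: Krt1, Krt2, Krt10, Krt15, Krt33a, Krt35, Krtdap, Tchh, Vcl, Cd151, S100a8, Gapdh, Actb, Eif2s3y and Xist.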

Additional observations from a re-analysis of the deposited data

How the results depend on the processing

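Of 108 recomputed values of single members over 12 alternatives, 104 kept their direction and side of the threshold. Dsg2 lay between -0.031 and 0.16 when each pair was left out, negative without pair 1, and without that pair Cdsn, Dsc2 and Dsc1 passed. Leaving out each pair gave 0 to 3 members past the threshold, against 0 with all pairs, and 0 under every other alternative, the replicate block among them. Leaving out each pair moved the members' median to between 0.14 and 0.23, and it was 0.28 on arrays with LynDN in Cy3 and 0.097 on those with LynDN in Cy5. Of the other listed junction genes, keratins and proteases 1 passed (Krt16). This count was 4 with the replicate block, 3 with quantile normalization, 0 without variance moderation, 3 with LynDN in Cy3 only, 2 with LynDN in Cy5 only, and 0 to 16 when each pair was left out, 16 of them without pair 1. The cause of these changes was not tested. Fits on fewer pairs or a single dye orientation rest on fewer arrays. With a single orientation, dye and genotype cannot be told apart. Over all rows the count of calls was 4, against 243 with the block, 72 with quantile normalization, 54 and 24 with LynDN in Cy3 or Cy5 only, 0 without moderation, 1117 without pair 1 and 2 without pair 2. Median centring, probes as rows, medians over probes and leaving out the array of another date changed no count by over 1.5 times. Signal over background is unknown, so dim probes could not be told from measured ones.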

Other observations

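Some neighbours of the desmosome depended on the dye, which their SDs over pairs do not show. Lama3 had 0.47, 0.72 and 0.54 on the arrays of pairs 1, 2 and 3 with LynDN in Cy3 and -0.34, -0.42 and -0.37 on those with LynDN in Cy5 (adjusted p of the dye term 0.00620 in the limma fit of 6 arrays). Nectin1 had 0.72, 1.03 and 0.99 with LynDN in Cy3 and -0.45, -0.20 and 0.085 with LynDN in Cy5 (adjusted p of the dye term 0.0151). Cd151, a tetraspanin of hemidesmosomes, had 0.21, 0.16 and 0.27 with LynDN in Cy3 and -0.48, -0.40 and -0.24 with LynDN in Cy5 (adjusted p of the dye term 0.0286). Vcl, of the adherens junction list, had 0.21, 0.70 and 0.42 with LynDN in Cy3 and -0.24, -0.19 and -0.095 with LynDN in Cy5 (adjusted p of the dye term 0.0495). For Cdh1 the adjusted p of the dye term was 0.0510. The dye term passed for 2.56% of all rows and for 0 of the 9 desmosomal members, whose adjusted p for it lay between 0.281 and 0.942. For 9 genes a count of 0 is near that share. The members' median was 0.28 on arrays with LynDN in Cy3 and 0.097 on those with LynDN in Cy5.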
